A study of Mus musculus with 36 samples.

Results

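TRAP-seq of the first time point of the series compared ribosome-associated RNA of hippocampal excitatory neurons 30 min after chemical induction of long-term potentiation (LTP) with that of vehicle-treated slices. All 6 TRAP-seq libraries of this time were used, 3 basal and 3 LTP, of 36 libraries in the series. The mice were RiboTag x Camk2a-cre double heterozygotes of both sexes, 8 to 12 weeks old and labelled C57BL/6. In these mice the Camk2a promoter drives Cre in excitatory neurons, and Cre switches on an HA tag on the ribosomal protein Rpl22, so that both groups carry the same alleles and tagged ribosomes can be pulled down with anti-HA beads (translating ribosome affinity purification, TRAP). Mini-slices of CA3 and CA1, from which the dentate gyrus had been cut away, were treated with forskolin and then with high K+, high Ca2+ and forskolin without Mg2+ (LTP) or with DMSO (basal), returned to normal medium and frozen 30 min later. Each replicate pooled 4 mice, and the basal and LTP slices of a replicate came from the same mice on the same day.

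Strong synaptic activity raises Ca2+ and cAMP, and within minutes kinases such as ERK and PKA act on transcription factors and on the translation machinery. The first genes to respond are immediate early genes, which need no new protein, and among them are transcription factors such as Fos and dendritic effectors such as Arc. A change in RNA bound to tagged ribosomes can come from more or less of the RNA or from a different share of it on ribosomes, and TRAP-seq alone cannot tell these apart. In pooled tissue, fewer cells of a type and less RNA per cell cannot be told apart either.

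The 3 basal libraries held 42684470 to 52459224 reads on genes and the 3 LTP libraries 23182044 to 34884866, so that every LTP library was shallower than every basal one. Rn45s, the ribosomal RNA precursor, took 8.04% of the reads of LTP replicate 2, 2.90% of basal replicate 1 and 0.0902 to 0.160% of the other 4, and was left out. Values below are counts normalized by the trimmed mean of M values (TMM), and a gene was called where its adjusted p was under 0.1 and its log2 fold change beyond 0.4 in either direction, in a fit with the replicate as block. Of 14266 genes tested, 236 were called (1.65%), 172 higher in LTP (1.21%) and 64 lower (0.449%), and the median log2 fold change of all genes was 0.00060. Without the block 57 genes were called (0.4%), 51 higher (0.357%) and 6 lower (0.0421%). Markers of excitatory neurons were present as the label says: all 13 were tested, 12 of 13 were higher in basal TRAP-seq than in basal total RNA of the same time, and Camk2a, the kinase whose promoter drives Cre, stood at 70599.96, 69977 and 70305 normalized counts in basal and 59791, 66899 and 66176 in LTP slices.

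Known early genes made up a small share of the calls in the fit with the block. Their share was larger in other fits, at 18 of 57 calls without the block and 18 of 54 with DESeq2 and the block. Of 82 genes in 3 lists of immediate early transcription factors, activity-regulated effectors and MAP kinase phosphatases, 80 were tested, 20 were called higher and 0 lower (20 of 80, against 1.21% of all genes). Btg2, an antiproliferative gene, stood at 1782, 1669 and 1722 normalized counts in basal replicates 1 to 3 and 7046, 5508 and 8959.6 in LTP replicates 1 to 3 (log2 fold change 2.03 ± 0.076, SE, adjusted p = 5.4e-13). Fos, a subunit of the AP-1 transcription factor, rose by 1.38 ± 0.05 (adjusted p = 5.4e-13), and Gadd45g, a stress-response protein, rose by 1.63 ± 0.063 (adjusted p = 7.2e-13). Npas4, a neuronal transcription factor induced by Ca2+, rose by 1.32 ± 0.052 (adjusted p = 9.3e-13). Arl4d, a small GTPase, rose by 1.36 ± 0.064 (adjusted p = 1.9e-11), and Arc rose by 1.02 ± 0.053 (adjusted p = 9.8e-11). In 19 of the 20 the LTP values all lay above the basal values.

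Outside these lists 216 genes were called, 152 higher and 64 lower. Their changes were mostly small: the median log2 fold change was 0.53 among the higher genes and -0.50 among the lower ones. The LTP and basal values did not overlap in 110 of the 152 higher and 37 of the 64 lower genes, where 9.89% and 9.86% of all tested genes had LTP values entirely above or entirely below basal. Abundance differed widely, and 83 of the higher and 32 of the lower genes had a mean of fewer than 100 normalized counts. The plot of change against abundance shows that the changes above 1 on the log2 scale outside the known early genes were all in that low range.

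**Figure D1:**
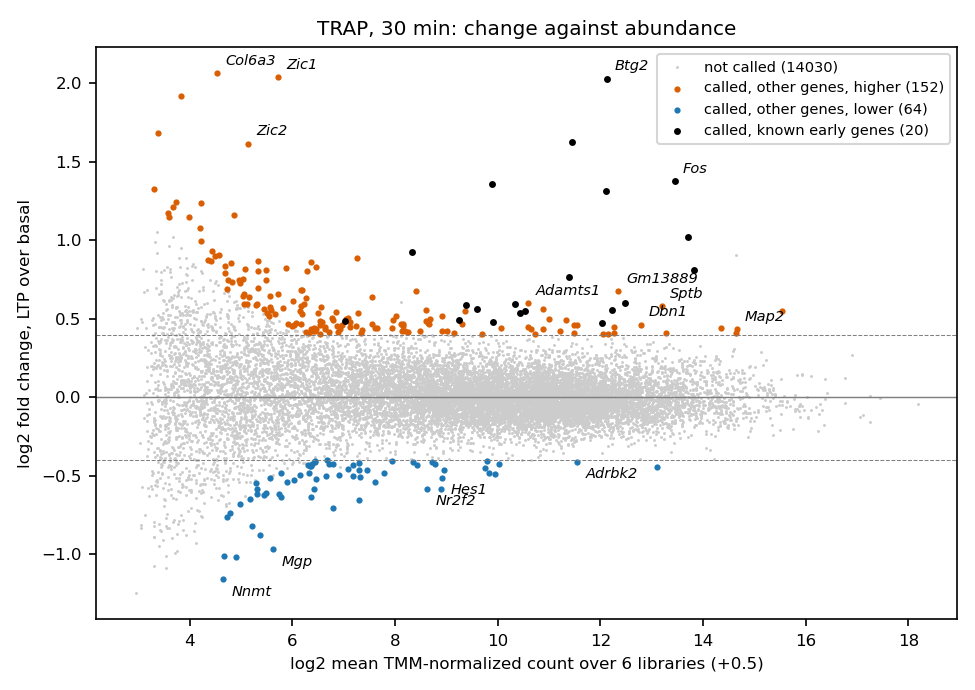
Log2 fold change of LTP over basal against the log2 mean TMM-normalized count of each of 14266 tested genes, with the 152 higher, 64 lower and 20 known early calls in colour and dashed lines at the minimum change. Among abundant called genes outside the known early lists are Sptb at 0.58, Map2 at 0.43 and Nnat at -0.44, while Zic1, Zic2 and Col6a3 stand above 1.5 at low counts.

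Spectrins, the long rod proteins that tie the plasma membrane of axons and dendrites to actin, were among the most abundant of the higher genes. Sptb (beta-I spectrin) stood at 7435, 7204 and 7914 normalized counts in basal and 10544, 12121 and 11062 in LTP replicates, a log2 fold change of 0.58 ± 0.049 (adjusted p = 3.8e-07). Every LTP library lay above every basal one, and LTP replicate 2 was highest. Sptbn1 (beta-II spectrin) stood at 17149, 17603 and 18090.5 in basal and 22129.6, 25757 and 24000.4 in LTP replicates (0.44 ± 0.05, adjusted p = 1.8e-05). Sptan1 (alpha-II spectrin), the partner of the beta chains, stood at 21288, 21898 and 22469 and 27566, 30804 and 28894 (0.41 ± 0.048, adjusted p = 3e-05). Again the groups did not overlap, and LTP replicate 2 was the highest library. These 3 genes lie on different chromosomes (GRCm38.p6: Sptb on 12 from 76580488 to 76710547, Sptbn1 on 11 from 30099395 to 30268384 and Sptan1 on 2 from 29965560 to 30031451).

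Of the 15 spectrins and ankyrins tested, 4 were called higher, these 3 among them, and 0 lower, where 1.21% of all genes were called higher. The median of the list was 0.17. Sptbn4 (beta-IV spectrin of the axon initial segment) and the ankyrins Ank2 and Ank3, which anchor ion channels to spectrin, stayed under the minimum change at 0.34 ± 0.042, 0.30 ± 0.044 and 0.17 ± 0.044, although their LTP values also lay above all basal values. Spectrin transcripts are among the longest measured (Sptb 9239, Sptbn1 8602 and Sptan1 7859 nucleotides), and longer transcripts had higher fold changes in these libraries. Once the dependence on length and GC content was taken out, Sptb kept a log2 fold change of 0.48 and was still called, whereas Sptbn1 at 0.37 and Sptan1 at 0.33 fell below the minimum change and were not called. Without replicate 2 the values were 0.50, 0.39 and 0.37 for Sptb, Sptbn1 and Sptan1, and the last 2 were not called. In each of these fits 2 of the 15 spectrins and ankyrins were called.

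**Figure D2:**
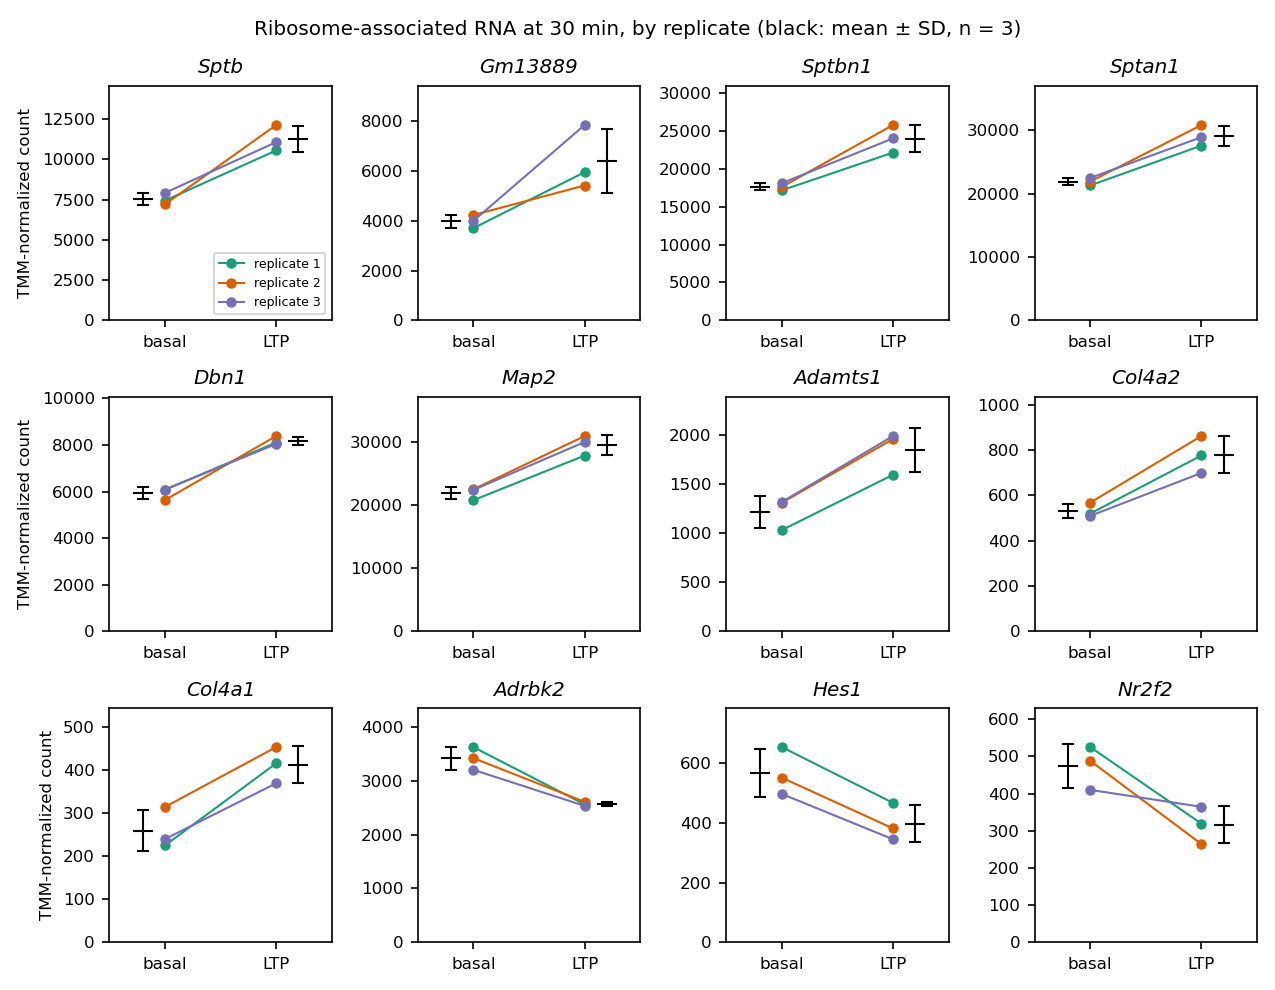
TMM-normalized counts of 12 called genes in the 3 basal and 3 LTP libraries, with a line for each replicate (basal and LTP slices of the same mice) and black bars for the mean ± SD (n = 3). In all 12 genes the lines of the 3 replicates run the same way, up for the 9 higher genes and down for Adrbk2, Hes1 and Nr2f2.

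Other genes of the cytoskeleton and of dendrites rose with them. Dbn1 (drebrin), which binds and stabilises actin in dendritic spines, stood at 6077, 5636 and 6089 normalized counts in basal and 8104, 8383 and 8045 in LTP replicates (0.46 ± 0.043, adjusted p = 1.4e-06). Map2, the microtubule-associated protein of dendrites, stood at 20797, 22518 and 22429 in basal and 27872, 30968 and 30023 in LTP replicates (0.43 ± 0.047, adjusted p = 8.6e-06). Both separated the groups, both had similar values in the 3 LTP libraries, and both remained called with the length trend removed (0.43 and 0.41) and without replicate 2 (0.41 and 0.42). Of 26 genes of the actin and spine cytoskeleton, 4 were called higher and 0 lower, with a list median of 0.17. Besides Dbn1 these were Tln1 (talin, which links integrins to actin) at 0.52 ± 0.094 and the actin cross-linkers Flna (filamin A) at 0.44 ± 0.1 and Flnc (filamin C) at 0.76 ± 0.26. These 3 were scarce, with LTP means of 303 normalized counts for Tln1, 229 for Flna and 40.7 for Flnc. Flna was not called with the length and GC trend removed (0.36), Flnc was at 0.41 and not called without replicate 2, and Tln1 was called in all of these fits. Of 21 microtubule-associated proteins Map2 was the only one called, with a list median of 0.10. The share called higher over all genes was 1.21%.

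Several signalling and housekeeping genes with high counts were also higher. Adamts1, a secreted protease that cleaves proteoglycans of the extracellular matrix, stood at 1031, 1309 and 1317 normalized counts in basal and 1593, 1957 and 1988 in LTP replicates (0.60 ± 0.054, adjusted p = 8.2e-07). Gm13889, a predicted gene of unknown role, stood at 3702, 4231 and 3994 and 5951, 5415 and 7842 (0.67 ± 0.07, adjusted p = 5e-06). LTP replicate 3 was the highest library for Gm13889, and the groups did not overlap for either gene. Rnf11, a RING-finger ubiquitin ligase component, stood at 8846, 8308 and 8437 and 11439.6, 11129 and 11375 (0.41 ± 0.041, adjusted p = 4.4e-06), just above the minimum change. Tnks1bp1, which binds tankyrase, rose by 0.45 ± 0.046 (adjusted p = 4.4e-06) and was at 0.37, not called, once the length and GC trend was removed. Tpr, a long coiled-coil protein of the nuclear pore basket, stood at 2521, 2414 and 2324 and 3337, 3429.7 and 3213 (0.46 ± 0.047, adjusted p = 4.6e-06) and remained called at 0.40 with the trend removed. In the list of golgins, nucleoporins and other long housekeeping transcripts, Tpr and Ahnak, a very large scaffold protein, were called of 28, with a median of 0.11. The share called higher over all genes was 1.21%. Ahnak was at 0.42 ± 0.077 and at 0.33, not called, with the trend removed.

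Genes of collagens and the basement membrane had the highest median of all lists, 0.35, when all libraries entered the fit. Of 27 tested, 7 were called higher and 0 lower, where 1.21% of all genes were called higher. After correction for transcript length and GC content the list median was 0.30, still the highest. Leaving out replicate 2 lowered it to 0.27, below immediate early transcription factors (0.33) and endothelial and mural markers (0.40). Col4a1 and Col4a2 encode the chains of type IV collagen, the sheet of the basement membrane, and are neighbours on chromosome 8 (11198423 to 11312889 and 11312805 to 11449287) whose annotated ends overlap. Col4a2 stood at 519.6, 568 and 509 normalized counts in basal and 776, 861 and 699 in LTP replicates (0.55 ± 0.066, adjusted p = 3.4e-05), and Col4a1 at 225, 315 and 240.4 and 417, 454 and 370.2 (0.68 ± 0.09, adjusted p = 9.5e-05). Both pairs of groups were separate, and both genes remained called with the length trend removed and without any one replicate. Col11a1, a fibrillar collagen, stood at 58.8, 60.2 and 49.7 and 85.8, 122 and 90.0 (0.80 ± 0.16, adjusted p = 0.0021). Col6a3, a microfibrillar collagen, had few reads, 6.24, 11.9 and 7.33 in basal and 27.2, 26.4 and 55.7 in LTP replicates (2.07 ± 0.34, adjusted p = 0.00064), with LTP replicate 3 far above the other libraries. Col6a1 at 0.64 ± 0.19, Col5a2 at 0.74 ± 0.25 and Lama5, a laminin chain, at 0.59 ± 0.21 completed the 7. None of these last 3 was called without replicate 3, where they were at 0.57, 0.65 and 0.68. Itga7, a laminin-binding integrin, stood at 387, 330.5 and 477 and 607, 523 and 573 (0.52 ± 0.083, adjusted p = 0.00053) and was the only called gene of 22 in the list of integrins and focal adhesion. Jag1, a Notch ligand, was the only one called of 32 growth factor, Wnt, TGF-beta and BMP genes, at 248, 214 and 239 in basal and 390.5, 299 and 280.1 in LTP replicates (0.47 ± 0.099, adjusted p = 0.0042), and at 0.36, not called, without replicate 1. Most collagen genes are expressed by vascular and fibroblast-like cells, and markers of these cells are given further on.

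**Figure D3:**
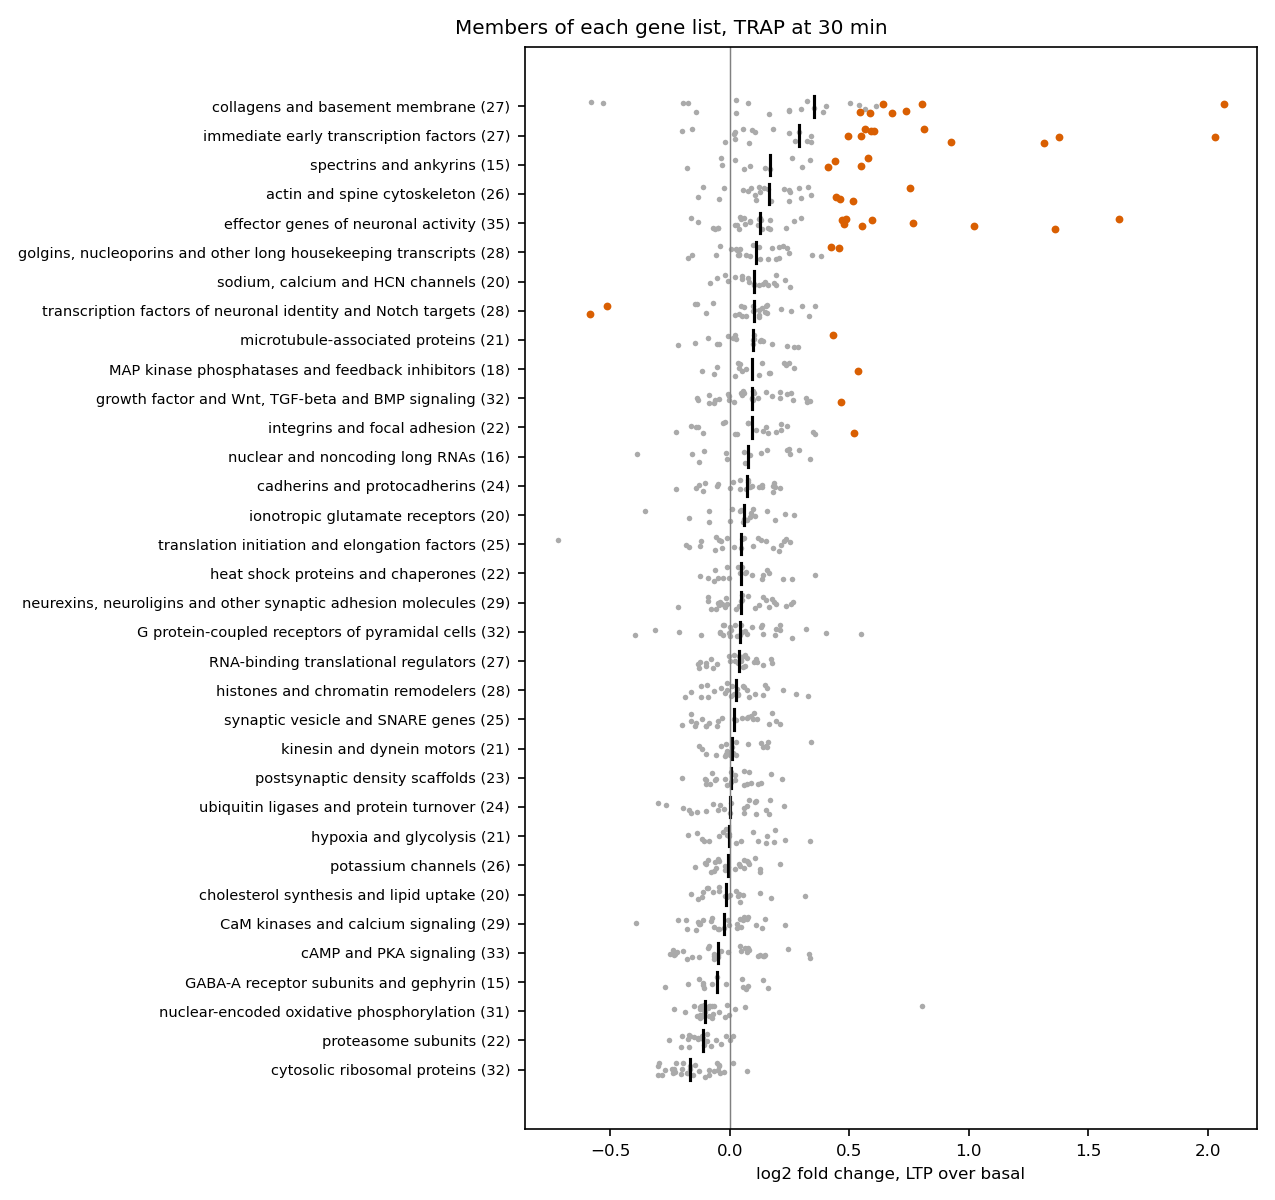
Log2 fold change of LTP over basal for every tested member of 34 gene lists (number tested in brackets), ordered by the list median (black tick), with called members in orange. Collagens and basement membrane lead with a median of 0.35, and cytosolic ribosomal proteins lie lowest at -0.17 with no member called.

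Outside the marker lists, 1 list held lower genes, that of transcription factors. Adrbk2 (Grk3), a kinase that desensitises G protein-coupled receptors, had the smallest adjusted p, at 3623, 3418 and 3201 normalized counts in basal and 2561, 2607 and 2533 in LTP replicates (-0.41 ± 0.048, adjusted p = 3e-05). Its LTP values were nearly equal in the 3 replicates and below every basal value. Without replicate 1 Adrbk2 was at -0.36 and not called. Hes1, a transcriptional repressor induced by Notch, stood at 655, 552 and 498 and 468, 382 and 346 (-0.51 ± 0.072, adjusted p = 0.00016). Nr2f2 (COUP-TFII), an orphan nuclear receptor, stood at 525, 488 and 409.9 and 319, 264 and 364 (-0.58 ± 0.1, adjusted p = 0.0012), and fell least in replicate 3. These were the 2 called genes of 28 transcription factors of neuronal identity and Notch targets, whose median was 0.10 (0.449% of all genes were called lower). Cpne2, a Ca2+-dependent phospholipid-binding copine, stood at 627, 612 and 478 and 394, 328 and 419 (-0.58 ± 0.098, adjusted p = 0.00081). Rasgef1b, a guanine nucleotide exchange factor, stood at 564, 599 and 549 and 402, 389 and 447 (-0.47 ± 0.077, adjusted p = 0.00076), and Plch1, a phospholipase C, at 509.8, 466 and 522 and 396, 356 and 362 (-0.43 ± 0.077, adjusted p = 0.0013). In all of these the groups were separate. Rasgef1b was at -0.39 without replicate 2 and Plch1 at -0.37 without replicate 3, both not called.

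For others the groups overlapped although each pair fell. Garnl3, a Rap GTPase-activating domain protein, stood at 998, 1176 and 802 normalized counts in basal and 701, 814 and 649 in LTP replicates (-0.45 ± 0.065, adjusted p = 0.00017). Nnat (neuronatin), a small endoplasmic reticulum protein, stood at 9076, 10012 and 10860.3 and 6519, 6033 and 9897 (-0.44 ± 0.069, adjusted p = 0.00042), with a small fall in replicate 3, and without replicate 2 its value was -0.30 and not called. Plxnd1, a semaphorin receptor, stood at 922, 1298 and 782 and 599.9, 1119 and 593 (-0.41 ± 0.071, adjusted p = 0.0011); replicate 2 was high in both groups. Mgp, an inhibitor of calcification, fell by 0.97 on the log2 scale from low counts of 52.6, 51.1 and 88.8 to 24.1, 19.4 and 55.7 (adjusted p = 0.0035). Tspan9, a tetraspanin, at -0.49 ± 0.083 and S100a10, a Ca2+-binding protein family member, at -0.43 ± 0.08 had separate groups. S100a10 was not called with the trend removed (-0.37) or without replicate 2 (-0.27). Without replicate 1 Tspan9 was at -0.36 and Plxnd1 at -0.30, both not called. Without the block only 6 lower genes were called, namely Adrbk2, Rasgef1b, Nr2f2, Cpne2, Plch1 and Timp2, an inhibitor of metalloproteinases that had -0.39 ± 0.067 with the block.

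Fold changes of uncalled genes followed the length of their transcripts, mainly in replicate 2. Over 10134 uncalled genes with a mean of at least 200 counts and a known length, Spearman's rho of log2 fold change with mean transcript length was 0.26, a description across genes, which are not independent replicates and share the 6 libraries. Computed in each replicate alone it was 0.063 in replicate 1, 0.45 in replicate 2 and 0.049 in replicate 3. In the shortest of 10 equal groups of genes, with a median length of 921 nucleotides, the median change was -0.057 over all libraries and -0.17 in replicate 2, and in the longest group, with a median of 7316 nucleotides, it was 0.056 and 0.12. Replicate 2 holds the LTP library with the fewest reads and the highest share of Rn45s, and the part of either in the trend was not tested. Higher genes outside the known early lists had a median length of 3564 nucleotides, lower ones of 2526 and all tested genes of 2779.

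**Figure D4:**
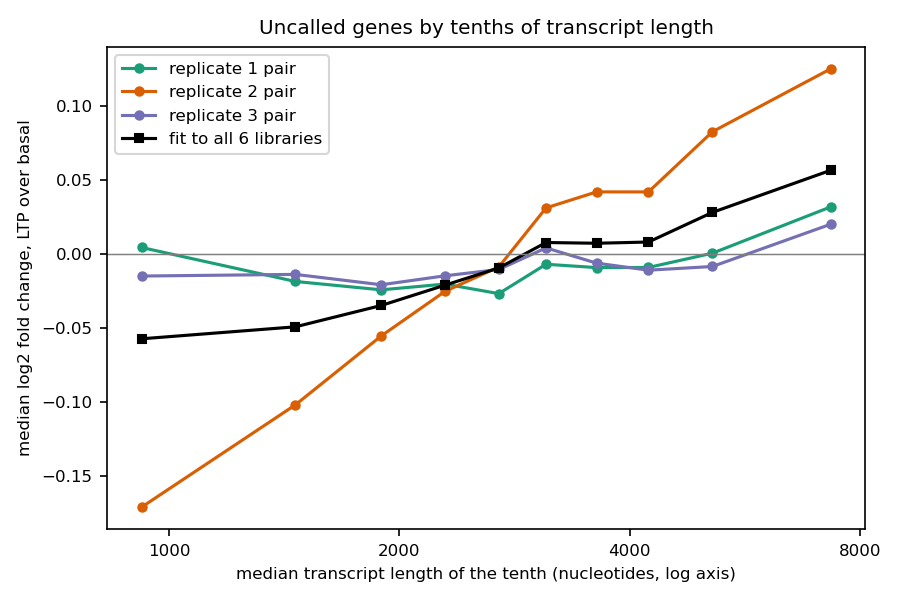
Median log2 fold change of LTP over basal of uncalled genes in 10 equal groups by transcript length (x axis, median length in nucleotides, log axis), for each replicate and for the fit to all 6 libraries (black). Replicate 2 climbs from -0.17 to 0.12, while replicates 1 and 3 stay between -0.027 and 0.032.

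When the dependence of fold change on length and GC content was taken out, 232 genes were called (1.63%), 153 higher (1.07%) and 79 lower (0.555%). Of the 236, 192 were called in both fits, 43 were lost (37 higher and 6 lower), 1 had no length, and 40 were gained (18 higher and 22 lower). Of the 152 higher genes outside the known early lists 115 were called in both, of the 64 lower ones 57, and of the 20 known early genes 20. The losses with the smallest adjusted p included Tnks1bp1, Sptbn1 and Sptan1, already named, and Prdm8, a histone methyltransferase-like zinc finger protein, which went from 0.42 ± 0.05 to 0.38. Lower genes gained by it included Hivep2, a zinc finger transcription factor (-0.32 to -0.40), Tgfbrap1, a TGF-beta receptor-associated protein (-0.38 to -0.43), Cog7, a subunit of the Golgi COG complex (-0.40 to -0.41), and Grin3a, an NMDA receptor subunit (-0.35 to -0.42).

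Calls also depended on which replicates entered. Of the 152 higher genes outside the known early lists, 70 were called without replicate 1, 95 without replicate 2 and 93 without replicate 3, and of the 64 lower genes 25, 27 and 43. Called in all 3 of these fits and with the length and GC trend removed were 29 higher and 9 lower genes, and the groups were separate in 28 and 5 of them. The 29 included Sptb, Dbn1, Map2, Tpr, Adamts1, Gm13889, Col4a1, Col4a2, Col11a1, Col6a3, Tln1, Itga7, Dsp and Slc32a1, and the 9 included Hes1, Nr2f2, Cpne2, Garnl3 and Mgp. All these fits kept the replicate as block. Without the block, 33 of the 152 higher and 5 of the 64 lower genes were called. Itga7 (adjusted p = 0.11), Hes1 (0.13), Garnl3 (0.17), Mgp (0.29) and Slc32a1 were not called in that edgeR fit. Thinned to the size of the smallest library, which removes the difference in depth, 94 of the 152 higher, 40 of the 64 lower and 20 of the 20 known early genes were called.

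Most gene groups of the synapse and of translation had no called member. Of 31 lists outside the known early genes and cell type markers, 23 had 0 members called, over 565 tested genes, with list medians between -0.17 and 0.10. Over all genes tested, 1.65% were called, and at such a share 0 called in a list of this size says little about it. The 565 genes come from lists picked for having no call, so their 0 was fixed by that choice. At an unadjusted p under 0.05 these lists still held members, where 3695 of all 14266 genes passed that level. Some lists were balanced, with 4 higher and 3 lower of 23 postsynaptic density scaffolds and 4 higher and 2 lower of 20 ionotropic glutamate receptors. Others leaned one way. Sodium, calcium and HCN channels had 11 higher and 0 lower of 20, and neurexins, neuroligins and other synaptic adhesion molecules 11 and 1 of 29. Both lists hold long transcripts, with median lengths of 7621 and 5285.5 nucleotides against 2779 over all tested genes. Their median log2 fold changes were 0.10 and 0.05, and 0.06 and 0.01 with the length and GC trend removed. The part of length in this lean was not tested. CaM kinases and calcium signalling had 2 higher and 9 lower of 29. Dlg4 (PSD-95), the central scaffold of the excitatory postsynapse, stood at 35646, 37377 and 35726 normalized counts in basal and 35585, 39948 and 37946 in LTP replicates (0.06 ± 0.045, adjusted p = 0.44). The AMPA receptor subunits Gria1 and Gria2 had log2 fold changes of 0.04 ± 0.045 and 0.06 ± 0.046 (adjusted p = 0.58 and 0.49). The SE of these abundant genes was far smaller than the minimum change of 0.4.

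Among 15 inhibitory receptor genes tested, Gabbr1, a GABA-B receptor subunit, was at -0.02 ± 0.047 (adjusted p = 0.87). Of 33 genes of cAMP and PKA signalling, the pathway that forskolin drives, 0 were called, with Adcy1, a Ca2+-stimulated adenylyl cyclase, at 0.05 ± 0.055 and Prkar1a, a regulatory subunit of PKA, at 0.04 ± 0.047 (adjusted p = 0.65 and 0.61). Of 29 genes of CaM kinases and calcium signalling 0 were called, with Calm3, a calmodulin gene, at -0.01 ± 0.032 (adjusted p = 0.93). Snap25, a SNARE protein of synaptic vesicles, was at -0.16 ± 0.031 (adjusted p = 0.0023), under the minimum change. The kinesin heavy chains Kif5c and Kif5a, which carry cargo along dendrites and axons, were at 0.03 ± 0.047 and 0.14 ± 0.047 (adjusted p = 0.78 and 0.06), and 0 of 21 motor genes were called. The share called over all genes was 1.65%.

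Short transcripts of ribosomes, mitochondria and the proteasome sat slightly below 0. The median was -0.17 over 32 cytosolic ribosomal proteins, -0.10 over 31 nuclear-encoded genes of oxidative phosphorylation and -0.11 over 22 proteasome subunits, with 0 called in each (1.65% of all genes were called). At an unadjusted p under 0.05, 20 of 32, 12 of 31 and 14 of 22 were lower. With the length and GC trend removed the medians were -0.12, -0.05 and -0.07, and without replicate 2 they were -0.09, 0.01 and -0.07. Rps3, a protein of the small ribosomal subunit, stood at 11264, 11721 and 12444 normalized counts in basal and 11246, 9007 and 11471 in LTP replicates (-0.17 ± 0.054, adjusted p = 0.056), and LTP replicate 2 was well below the other libraries. The elongation factor genes Eef1a1 and Eef1a2 were at -0.06 ± 0.048 and 0.10 ± 0.047 (adjusted p = 0.47 and 0.20). Of the long noncoding RNAs, Malat1, a nuclear RNA, was at 0.25 ± 0.053 (adjusted p = 0.004) with overlapping groups.

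Markers of other cell types were low in TRAP-seq and a few of them moved. For interneurons 3 of 12 markers tested were called higher and 0 lower: Slc32a1 (the vesicular GABA transporter) at 51.7, 84.7 and 53.0 normalized counts in basal and 107, 109 and 116 in LTP replicates (0.83 ± 0.16, adjusted p = 0.0023), Gad2 (GABA synthesis) at 121, 155 and 139 and 174, 174 and 209 (0.43 ± 0.12, adjusted p = 0.025) and Dlx1 (an interneuron transcription factor) at 0.84 ± 0.26 (adjusted p = 0.043). Their groups were separate. Without replicate 1 Gad2 was at 0.38 and Dlx1 at 0.82, both not called, whereas Slc32a1 was called without any one replicate. In the fit without the block 0 of the 12 interneuron markers were called. The list median was 0.14, with 9 of 12 above 0 and the lowest member at -0.43. At an unadjusted p under 0.05, 4 were higher and 1 lower. Of all genes, 1.21% were called higher. The summed level of the whole list was 736 to 913 CPM (reads scaled to a common library size) in basal and 780 to 929 in LTP libraries. For endothelial and mural cells 3 of 15 were called higher, Flt1, a VEGF receptor, at 0.66 ± 0.21, Pecam1, an adhesion protein of endothelium, at 0.73 ± 0.23 and Ly6c1 at 1.15 ± 0.35, with a summed level of 17.8 to 21.8 in basal and 19.8 to 22.6 CPM in LTP libraries. None of the 3 was called without replicate 1, where Flt1 was at 0.36, Pecam1 at 0.76 and Ly6c1 at 1.05. For meningeal fibroblasts Islr was called higher at 0.44 ± 0.12 and Dcn (decorin) lower at -0.48 ± 0.11 of 8 tested, with sums of 47.7 to 56.8 and 40.3 to 48.0. Islr was at 0.30 without replicate 1 and Dcn at -0.20 without replicate 2, both not called. None of these markers was at 0 reads, and their part in the collagen and other results was not tested.

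Dentate granule cells, which the dissection removes, still showed their markers. Dsp (desmoplakin), a plaque protein of cell junctions, stood at 1357, 1346 and 1921 normalized counts in basal and 2379, 2126 and 2254 in LTP replicates (0.56 ± 0.076, adjusted p = 0.00011), with separate groups. Plk5, a member of the polo-like kinase family, stood at 279.8, 326 and 400.1 and 490.0, 396 and 499 (0.47 ± 0.094, adjusted p = 0.0027), with overlapping groups, and was at 0.30 and not called without replicate 1. Of 8 markers 2 were called higher (1.21% of all genes were), 7 were higher at an unadjusted p under 0.05 and the median was 0.27. Their summed level was 298 to 406 CPM in basal and 365 to 427 in LTP libraries. Of astrocyte, oligodendrocyte, microglia and choroid plexus markers, 0 of 43 tested were called (1.65% of all genes were called). Slc1a2, the astrocyte glutamate transporter, was at 0.20 ± 0.045 (adjusted p = 0.0062), under the minimum change, and the astrocyte and oligodendrocyte lists had medians of 0.14 and 0.19. Of the 13 excitatory markers 0 were called and the median was 0.10, from -0.20 to 0.29. Before adjustment, 7 of them lay above 0 and 3 below 0 with p below 0.05. The lowest, Slc17a7 (the vesicular glutamate transporter VGLUT1), was at -0.20 ± 0.042 (adjusted p = 0.0043) with separate groups.

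The largest changes outside the known early genes came from scarce transcripts, picked here after their values were seen. Past 1 on the log2 scale there were 17 genes, 14 higher and 3 lower, all with a mean of at most 52.2 normalized counts. Zic1, a zinc finger transcription factor of neural development, stood at 10.7, 35.7 and 13.9 normalized counts in basal and 114, 38.8 and 100.04 in LTP replicates (2.04 ± 0.35, adjusted p = 0.00094), and its paralog Zic2 at 11.6, 18.9 and 20.4 and 59.7, 47.6 and 48.6 (1.62 ± 0.25, adjusted p = 0.00042). Sp8, a zinc finger transcription factor of interneuron progenitors, stood at 3.56, 6.30 and 4.07 and 19.9, 14.1 and 11.4 (1.68 ± 0.45, adjusted p = 0.021). All 3 had separate groups, and for Zic1 the LTP value of replicate 2 was far below the other LTP values. The 3 lower genes were Nnmt, a nicotinamide methyltransferase, at -1.16 ± 0.33, the ion channel gene Trpa1 at -1.02 ± 0.24 and Prr5, a subunit of mTORC2, at -1.01 ± 0.27. Single replicates decided several of these calls: without replicate 1 Sp8 (1.28), Trpa1 (-0.91) and Prr5 (-0.94) were not called, without replicate 2 Nnmt (-0.58) was not, and Zic1 was at 3.11 and called without replicate 2.

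TRAP-seq relative to total RNA in basal slices at 60 min, measured in other mice, was set beside these calls. One of the 3 basal TRAP-seq libraries of 60 min, replicate 1, is titled and tabulated as 60 min but has 30 min in its time label, and was taken as 60 min. Among the 152 higher genes 37 (24.3%) had less than 0.25 times their total RNA level in TRAP-seq, where 7.0% of all tested genes did. Low counts share in this: of the 83 higher genes with fewer than 100 counts 28 were under 0.25, against 24.3% of all genes with such counts, and of the other 69 there were 9, against 2.36%. Among the 64 lower genes 4 were under 0.25. Without the TRAP-seq library of doubtful time, 42 of the 152 higher genes (27.6%), 4 of the 64 lower genes and 7.23% of all genes were under 0.25. Slc32a1 stood at 0.095 and Gad2 at 0.079, Tln1 at 0.16, Adamts1 at 0.19 and Col4a1 at 0.28, whereas Sptb was at 0.92, Dbn1 at 1.26 and Map2 at 0.59.

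The same fit at 60 and 120 min, on libraries of other mice that were sequenced paired-end, called 236 of 14179 (1.66%) and 433 of 13765 (3.15%) of the genes tested at 30 min. Of the 20 known early genes 19 were called higher at 60 min and 20 at 120 min. Of the 152 other higher genes 14 were called higher at 60 min, 9.21% of the 152 and 13.5% of the 104 genes called higher then outside the known early lists, and 19 of 145 tested were called higher at 120 min (0.959% and 2.11% of all genes were called higher). Of the 64 lower genes 3 were called lower at 60 min and 4 of 63 at 120 min (0.705% and 1.04% of all genes). Called in the same direction at all 3 times were 11 genes outside the known early lists, 9 higher and 2 lower. With replicate 1 of 60 min, which holds the library of doubtful time, left out of the 60 min fit, 19 known early genes and 12 of the 152 were called higher and 2 of the 64 lower.

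Among these, Gm13889 rose by 0.67 at 30 min, 1.30 at 60 min and 1.84 at 120 min, and the difference between 60 and 30 min passed its test (adjusted p = 0.00095). The difference tests use the 30 min values by which these genes were called, and so are not independent of that choice. Of all genes tested at 30 min, 5.16% passed the difference test. Adamts1 rose by 0.60, 0.60 and 0.89, Map2 by 0.43, 0.48 and 0.62 and C2cd4b, a nuclear C2-domain protein, by 0.45, 0.43 and 0.56 at the 3 times. Zfp36 (tristetraprolin), which binds AU-rich elements and speeds decay of mRNA, rose by 0.46, 0.80 and 0.60. Rfx2, a transcription factor of ciliated cells, fell by 0.54, 0.55 and 0.59. The spectrins named above were not called at 60 min, with Sptb at 0.30, Sptbn1 at 0.12 and Sptan1 at -0.28. All 3 differed between 60 and 30 min (adjusted p of the interaction 0.019, 0.044 and 0.0097). The length and GC trend was not taken out of that test, and its part in these differences was not tested. Without replicate 1 of 60 min the 60 min values were 0.26, -0.01 and -0.55, and Sptan1 was called lower. At 120 min Sptb (0.74) and Sptbn1 (0.45) were called higher again and Sptan1 (0.25) was not. Hes1 was not called at 60 min (-0.36) and was called lower at 120 min (-0.84).

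**Figure D5:**
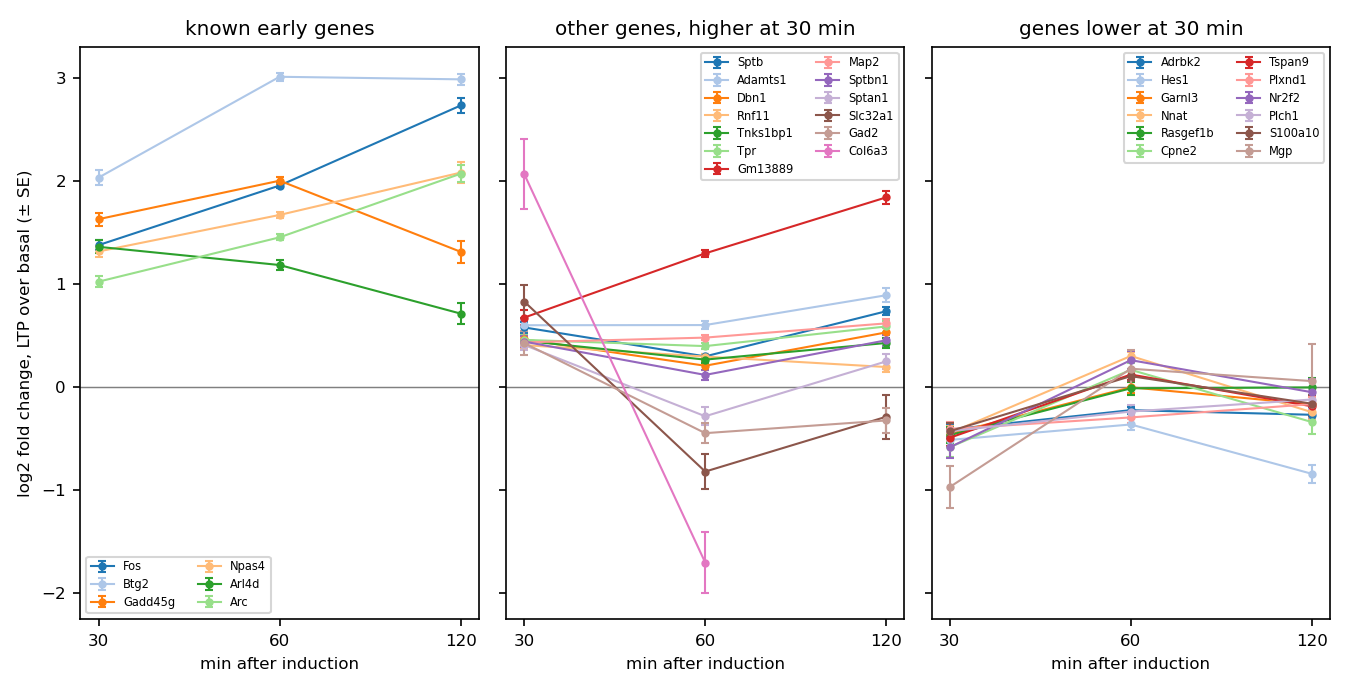
Log2 fold change (± SE) of LTP over basal in TRAP-seq at 30, 60 and 120 min for 6 known early genes, for 13 other genes called higher at 30 min and for 12 genes called lower at 30 min. The known early genes stay between 0.71 and 3.01, whereas Col6a3, Slc32a1, Gad2 and Sptan1 change sign at 60 min. The lower genes lie between -0.84 and 0.30 at 60 and 120 min.

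Some calls went the other way at 60 min. Of the 152 higher genes 12 were called lower at 60 min and of the 64 lower genes 4 were called higher (0.705% and 0.959% of all genes were called lower and higher). With replicate 1 of 60 min left out these became 5 and 7. The 16 included Zic1 (-1.65 at 60 min), Zic2 (-1.21), Sp8 (-1.25), Col6a3 (-1.70), Slc32a1 (-0.82) and Gad2 (-0.45), and 13 of them had a mean of fewer than 100 counts. Without replicate 1 of 60 min Zic1 was at -0.62 and Col6a3 at -1.02, both called lower, and Zic2 at -0.50, Sp8 at -0.60, Slc32a1 at -0.39 and Gad2 at -0.31 were not called. Over the 152 higher genes the median at 60 min was -0.01, and over the 64 lower genes it was 0.05.

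Promoters were searched for the cAMP response element, TGACGTCA, which reads the same on both strands and is bound by the transcription factor CREB that PKA phosphorylates, in the RefSeq windows from 250 bases before to 50 bases after each gene start (GRCm38.p6). A promoter was found for 10697 of the tested genes, 16 of the 20 known early, 111 of the 152 other higher and 41 of the 64 lower genes. The element was in 3.55% of all these promoters, in 4 of the 16 known early, in 2 of the 111 other higher (1.80%) and in 0 of the 41 lower genes. The short form TGACG, on either strand, which is part of the full element, was in 34.8% of all promoters, in 13 of 16, in 32 of 111 (28.8%) and in 14 of 41 (34.1%). The windows of the 6 called genes that hold the full element are printed to show its setting, each 30 bases read 5′ to 3′ on the gene's strand, with the element in capitals:
Btg2 (chr1:134079303-134079332, minus strand): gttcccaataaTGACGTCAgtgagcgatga
Arl4d (chr11:101665504-101665533, plus strand): gccgcgtcgtgTGACGTCAcgagagggttt
Ppp1r15a (chr7:45526262-45526291, minus strand): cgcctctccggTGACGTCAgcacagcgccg
Dusp1 (chr17:26508597-26508626, minus strand): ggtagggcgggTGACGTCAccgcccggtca
Flt1 (chr5:147726074-147726103, minus strand): gggggacccctTGACGTCActggaaggagg
Areg (chr5:91139527-91139556, plus strand): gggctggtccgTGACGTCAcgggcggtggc
The first 4 belong to known early genes, and Flt1 and Areg, an EGF receptor ligand, to the other higher genes. Areg stood at 16.0, 10.5 and 22.0 normalized counts in basal and 35.6, 28.2 and 27.2 in LTP replicates (0.91 ± 0.29, adjusted p = 0.047), with separate groups. A match describes the letters in this window and not binding.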

How the data were processed

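The TRAP-seq libraries of 30 min were single-end. Per the labels and the study's methods, the authors mapped reads to mm10 with STAR (version not given in the sources used here) and deposited raw counts per gene, the input here; the kit keeps no strand, so overlapping genes cannot be told apart. Deposited normalized values, fold changes and false discovery rates of the authors (edgeR) were not used, nor were 54 per-sample columns. Of 24060 genes, 2 with date-like symbols were left out.

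Genes were tested with the quasi-likelihood test of edgeR 4.0.16 (R 4.3.3) after filterByExpr and TMM scaling without Rn45s, with the replicate as block and Benjamini-Hochberg adjustment over all genes. The series text states that basal and LTP slices of a replicate share mice. After group means were removed, libraries of the same number correlated at 0.37 to 0.56 and others at most at 0.00081. Removing the mean of so few libraries pushes the other values down where same-number values are positive. The contrast is therefore not separate support for the block. Replicate differences use a pseudocount of 0.5. Lengths came from GENCODE M21. The alternatives include DESeq2 1.42.0 and limma 3.58.1. The test was checked on simulated counts.

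Named genes were, in each direction, the 12 called genes of lowest adjusted p outside the known early lists whose replicates all moved one way, up to 4 called members of each list (otherwise the 2 most abundant), 6 known early genes, genes that lost or gained a call with the length trend removed, lower genes called without the block, and markers. A few genes that the rule names are not reported here. Others were chosen after their values were seen. The members, lists and rules were chosen with earlier results of these data known.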

Additional observations from a re-analysis of the deposited data

Results flagged for a closer look

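For 3 genes chosen by the naming rule, the response at 60 min was called and opposite to that at 30 min. Their interaction was under the threshold in edgeR with the replicate block. Other named genes changed sign without being called at 60 min, among them Nnat (0.30), Sptan1 (-0.28) and Flna (-0.27). Their interaction also passed (adjusted p = 0.00036, 0.0097 and 0.0064). The genes were called on the 30 min values that the interaction also uses, so that its p-values are not independent support. Col6a3 rose at 30 min and fell at 60 min, a difference of -3.77 on the log2 scale (60 minus 30 min, adjusted p = 0.0005). Slc32a1 and Gad2, both of GABA neurons, differed by -1.64 (adjusted p = 0.0026) and -0.88 (adjusted p = 0.0048). Without replicate 1 of 60 min, whose basal library has 30 min in one of its labels, Col6a3 was at -1.02 and called lower at 60 min, and Slc32a1 at -0.39 and Gad2 at -0.31 were not called. The 60 min libraries came from other mice and were paired-end, and without the replicate block 12 genes in all passed this interaction test. LTP replicate 2 had 8.04% of its reads on Rn45s, which the comparison left out, against 0.0902 to 2.90% in the basal libraries. With Rn45s kept in the fit, 235 genes were called against 236 without it. Groups of 3 libraries are too small for a test of single outlying samples.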

How the results depend on the processing

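The total of 236 called genes fell to 57 without the replicate block, 54 with DESeq2 (179 of the 236 had no adjusted p there), 88 with DESeq2 without independent filtering (added after seeing the data) and 54 without the block once length and GC dependence was removed. It was 2400 with no minimum fold change and 23 past 1 on the log2 scale. Leaving out a replicate pair, or a single library without the block, gave 18 to 294 genes: 175 to 294 for pairs, and, against 57 with all libraries and no block, 18, 19 and 63 when basal replicate 1, 2 or 3 was dropped and 26, 41 and 36 when the LTP library of replicate 1, 2 or 3 was dropped. Known early genes, 20, became 44 with no minimum fold and 6 past 1, and 11 to 21 when replicates or libraries were left out. Outside them, 216 became 39 without the block, 36 with DESeq2, 69 without its independent filtering, 36 with the trend removed and no block, 2356 with no minimum fold and 17 past 1, and 7 to 276 when replicates or libraries were left out. Those also called at 60 min, 17, became 6, 5, 7, 4, 30 and 0 under the same 6 settings and 1 to 19 with replicates or libraries left out. With the trend removed, 232 genes became 54 without the block and 129 to 307 when replicates were left out. The interaction called 744 genes over all genes fitted, 12 without the block and 517 without replicate 1 of 60 min (both added after seeing the data). The rho with length was 0.07 to 0.32 with a replicate left out. No called gene of the naming rule reversed its sign under any of these settings. Other scalings, filters, limma, the likelihood ratio test and thinning kept the total within 1.5 times. A mean below 100 counts limits precision for 83 of the 152 higher genes.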
